A study of Homo sapiens with 18 samples.

Results

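The genes described here are 34 listed genes on the short arm of chromosome 11, in band 11p15.4, that lie on either side of the beta-globin gene cluster between NUP98 and DCHS1, with the globin genes themselves left out. They were taken by symbol from a given list, and all 34 were found among the 24394 genes of the count files, which hold 87 genes between NUP98 and DCHS1 outside the globin cluster. In chromosome order 10 lie on the telomere side of the cluster and 24 on the centromere side. The cells were K562, a human erythroleukaemia line that transcribes the embryonic globin gene HBE1 and the fetal genes HBG1 and HBG2, and RNA-seq was run on 18 libraries in 6 groups of 3. KRAB_CR4 and KRAB_CR10 carried lentivirus encoding dCas9-KRAB, a catalytically inactive Cas9 fused to a repressor domain, with 1 of the guide RNAs (gRNAs) named CR4 and CR10, both aimed at HS2, an enhancer upstream of HBE1. dCas9_CR4 and dCas9_CR10 carried the same gRNAs with dCas9 that has no repressor domain, KRAB_no_gRNA carried dCas9-KRAB without a gRNA, and no_lentivirus was not transduced. All 5 transduced groups shared the lentiviral vector, polybrene at 4 µg/ml during transduction and selection with puromycin at 1 µg/ml from about 96 hours later. Transduction in triplicate is stated for the dCas9-KRAB cells with a gRNA. For the other groups nothing says that the 3 libraries came from separate cultures, and p-values then measure the spread between these libraries only.

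HS2 belongs to the locus control region, a set of regulatory elements that loops to the globin promoters in erythroid cells. The region lies between HBE1 and the olfactory receptor gene OR51B4, so OR51B4 is its first listed neighbour on the centromere side and HBE1 its neighbour on the other. The flanks hold olfactory receptor genes, which are best known from the nasal epithelium, a cluster of TRIM genes, which encode RING-type ubiquitin ligases of which several act against viruses, and, farther out, genes that most cell types use. KRAB recruits a co-repressor complex that deposits methylation on lysine 9 of histone H3, a mark that can spread along chromatin, and the design asks for effects on and off the target.

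Library totals ranged from 22805964 to 34032962 counts, at 2 counts per sequenced fragment. Of the 14713 genes that passed the filter on low counts 26 were listed, 7 on the telomere side and 19 on the centromere side. The erythroid genes GATA1, TAL1 and KLF1 were each above 70 CPM (read counts relative to the TMM-scaled library size) in all 18 libraries, the B cell gene MS4A1 and the keratin gene KRT5 had no count, and CD3E and CD14 stayed under 1 CPM, while EPCAM reached 115 CPM, COL1A2 40.6 CPM and CD3D 10.6 CPM. The libraries numbered 3 of the 5 lentiviral groups stood apart from numbers 1 and 2, and no_lentivirus library 2 stood apart from the other untransduced libraries, as described below for the listed genes. Fewer cells that express a gene and less RNA per cell cannot be told apart in these bulk samples.

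The listed genes spanned a wide range of expression in K562 cells. Levels between genes are compared in CPM per kilobase of transcript, as the mean over 18 libraries. RHOG, a small GTPase, was highest at 146 CPM per kilobase, ahead of RRM1, the large subunit of ribonucleotide reductase, at 104. OR51B5 was next at 74.8 CPM per kilobase, ahead of NUP98, a nuclear pore protein, at 59.6. These levels overlapped between neighbours in the order: RHOG ranged from 120 to 178, RRM1 from 87.7 to 133, OR51B5 from 60.0 to 128 and NUP98 from 40.8 to 79.0 CPM per kilobase over the libraries. ILK, TAF10, STIM1, TPP1, OR51B4, PGAP2, TIMM10B and ARFIP2 lay between 24.0 and 46.4 CPM per kilobase.

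Of the 6 listed olfactory receptor genes, the pair OR51B4 and OR51B5 thus lay among the listed housekeeping genes in CPM per kilobase. Of the OR51B5 counts over all libraries 20070 were assigned to a non-coding transcript and 20798 to the coding one. OR51B4 had between 614 and 1832 counts and OR51B5 between 1518 and 4462 counts per library. OR51B2, which lies between them, was at 1.96 CPM per kilobase, with 16 to 188 counts. OR51I1 was at 1.11 CPM per kilobase, with 14 to 48 counts. OR52A1, on the other side of the globin cluster, had at most 10 counts in a library, and OR51V1, its neighbour next to HBB, had none. The lengths used for the olfactory receptor genes with coding transcripts only are coding lengths, and OR51B5 shares part of its span with OR51I1 in the RefSeq gene table, so reads of 1 can fall on the other.

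The TRIM genes were moderate or low. TRIM5, a factor that recognises retroviral capsids, was highest at 8.99 CPM per kilobase, followed by TRIM21, a cytosolic antibody receptor, at 7.89, TRIM68 at 6.27, TRIM6 at 4.06 and TRIM3 at 1.75. TRIM34 had at most 26 counts and TRIM22 at most 16 counts in a library. In the RefSeq gene table TRIM5 shares part of its span with TRIM6 and with TRIM34, and the preparation does not mark the strand.

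The 8 listed genes that were not tested were OR52A1, OR51V1, TRIM22, UBQLNL, CNGA4, CAVIN3, CCKBR and MMP26. UBQLNL, a ubiquilin-like gene, reached 28 counts, CNGA4, a subunit of the olfactory cyclic nucleotide-gated channel, 4 counts, and CAVIN3, a caveolar coat protein, and CCKBR, the gastrin receptor, 2 counts each. MMP26, a matrix metalloproteinase gene, and OR51V1 were at 0 in all 18 libraries. A count of 0 allows up to 3 fragments, or 0.176 to 0.263 CPM depending on the library. Among the tested genes HPX, which encodes the haem-binding plasma protein haemopexin, APBB1, an adaptor of the amyloid precursor protein, and DCHS1, a large cadherin, were also low, with at most 16, 36 and 70 counts.

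**Figure D1:**
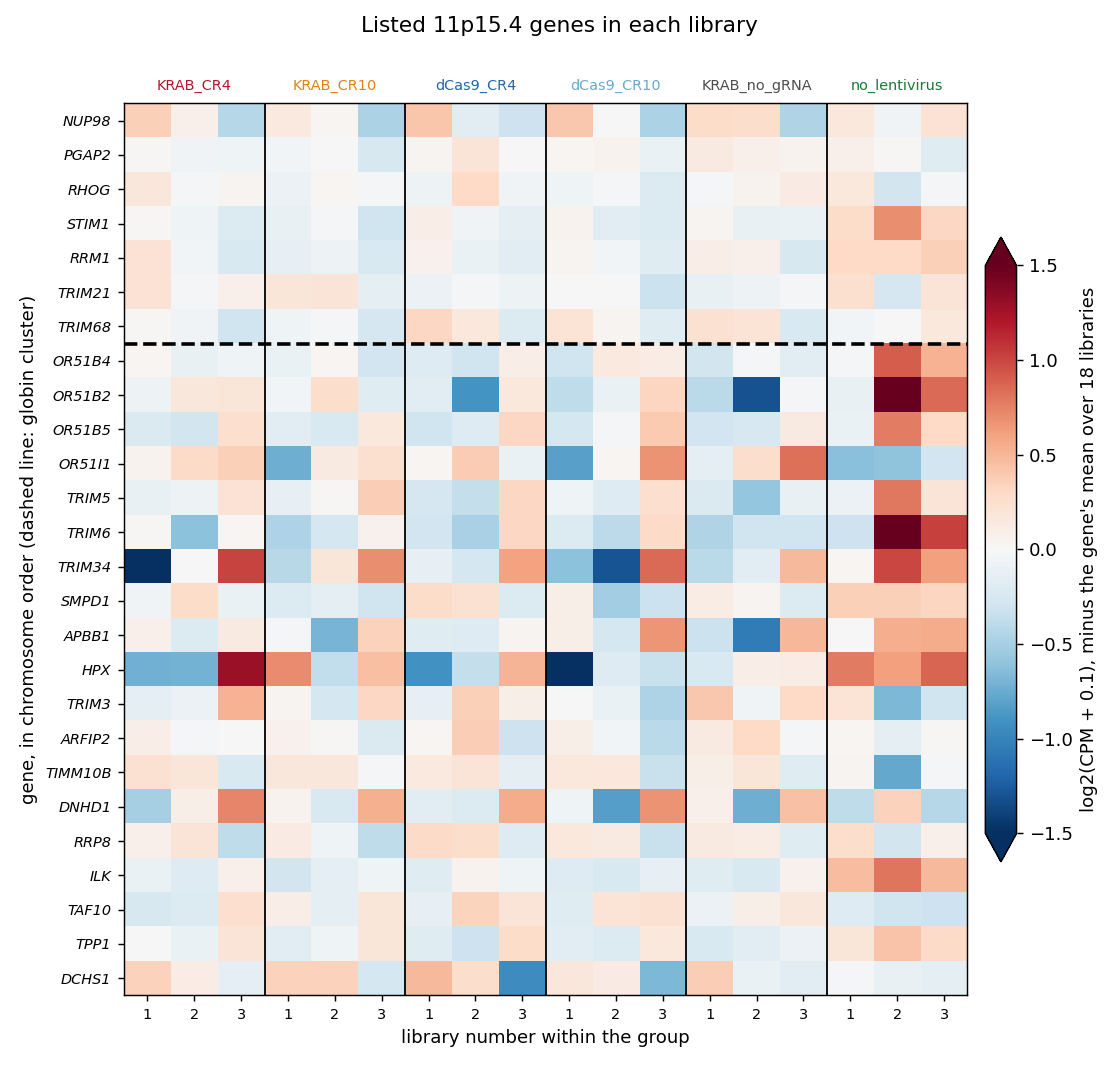
Level of the 26 tested genes (rows, in chromosome order, with the globin cluster at the dashed line) in each of the 18 libraries (columns, by group and library number) as log2(CPM + 0.1) minus the mean of the gene over all libraries. OR51B4, OR51B2, OR51B5, TRIM5, TRIM6, STIM1 and ILK are darkest red in no_lentivirus library 2, and no block of colour sets the KRAB_CR4 and KRAB_CR10 columns apart from the other lentiviral groups.

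Whether dCas9-KRAB at HS2 changed the flanking genes was asked first against KRAB_no_gRNA. None of the 26 tested genes passed an adjusted p of 0.05 in KRAB_CR4 or in KRAB_CR10 (edgeR quasi-likelihood test with Benjamini-Hochberg adjustment over all tested genes). The background was 0.0204% of genes in each comparison, which is 3 genes of 14713. Those 3 were HBE1, HBG1 and HBG2, all lower. HBE1 averaged 61.6 ± 6.20 CPM in KRAB_CR4 and 457 ± 17.8 CPM in KRAB_no_gRNA (SD, n = 3 each), a log2 fold change of -2.89 with a 95% interval from -3.20 to -2.59. In KRAB_CR10 it averaged 85.0 ± 11 CPM, with a log2 fold change of -2.43 (interval -2.73 to -2.13). In neither comparison did a listed gene reach an unadjusted p of 0.05, which 1.71% of all tested genes did in KRAB_CR4 and 1.49% in KRAB_CR10, and the DESeq2 test called 0 listed genes as well. With the library number as a block over the 15 lentiviral libraries 0 were called too, while TRIM5 and TPP1 in KRAB_CR4 and TRIM5 in KRAB_CR10, of 25 listed genes tested there, were under an unadjusted p of 0.05, as 8.66% and 10.3% of all tested genes were.

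OR51B4 is the listed gene nearest to HS2. Its CPM were 30.8, 27.9 and 28.9 in KRAB_CR4 libraries, 28.2, 30.7 and 24.7 in KRAB_CR10 libraries, 26.4, 24.6 and 32.3 in dCas9_CR4 libraries, 24.5, 33.3 and 32.5 in dCas9_CR10 libraries, and 24.9, 29.6 and 26.8 in KRAB_no_gRNA libraries. The 5 lentiviral groups overlapped throughout. KRAB_CR4 averaged 29.2 ± 1.46 CPM and KRAB_no_gRNA 27.1 ± 2.39 CPM (SD, n = 3 each), a log2 fold change of 0.11 with a 95% interval from -0.32 to 0.53. The change in KRAB_CR10 against KRAB_no_gRNA was 0.04, with an interval from -0.38 to 0.46. A fall of the size seen for HBE1 lies outside both intervals.

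OR51B5 had 70.1, 67.2 and 96.7 CPM in KRAB_CR4 libraries, 73.1, 69.4 and 90.6 in KRAB_CR10 libraries, 66.1, 71.2 and 101 in dCas9_CR4 libraries, 67.6, 79.6 and 107 in dCas9_CR10 libraries, and 66.8, 68.6 and 89.2 in KRAB_no_gRNA libraries. In each of these groups library 3 was the highest and the groups overlapped. The log2 fold change against KRAB_no_gRNA was 0.06 in KRAB_CR4 (interval -0.45 to 0.56) and 0.05 in KRAB_CR10 (interval -0.45 to 0.56). OR51B2 was too low for a narrow interval: 1.56, 1.86 and 1.88 CPM in KRAB_CR4 libraries against 1.22, 0.608 and 1.61 CPM in KRAB_no_gRNA libraries. Its log2 fold change was 0.62 (interval -0.36 to 1.60) in KRAB_CR4 and 0.55 (interval -0.42 to 1.53) in KRAB_CR10, with unadjusted p of 0.184 and 0.232, so its point estimates were above 0 with both gRNAs.

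**Figure D2:**
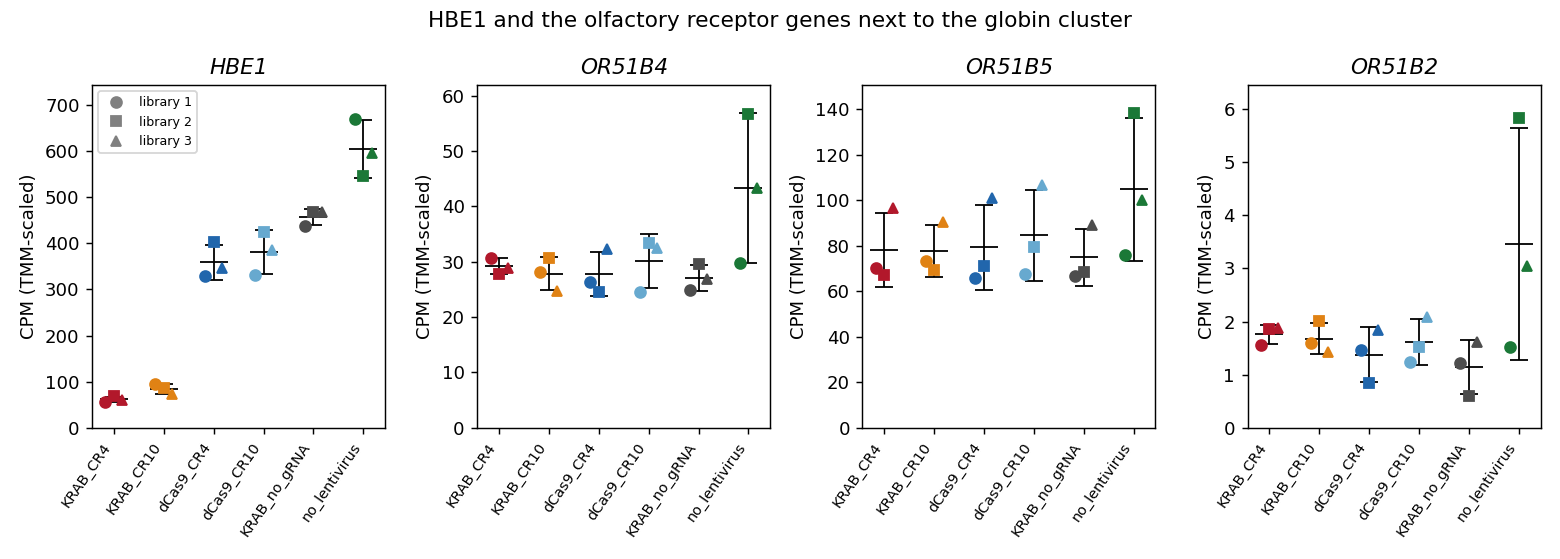
CPM of HBE1 and of the 3 nearest tested genes on the centromere side in each library (points, shaped by library number), with group means and SD (bars, n = 3). HBE1 lies between 55.8 and 95.1 CPM in the KRAB_CR4 and KRAB_CR10 libraries and at 329 CPM or more in all others, while OR51B4 and OR51B5 overlap between all 5 lentiviral groups.

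On the telomere side the nearest tested listed genes were TRIM68, TRIM21 and RRM1. TRIM68 had a log2 fold change of -0.19 in KRAB_CR4 (interval -0.55 to 0.17) and -0.19 in KRAB_CR10 (interval -0.55 to 0.17) against KRAB_no_gRNA. TRIM21 had 17.6, 15.0 and 16.0 CPM in KRAB_CR4 libraries and 13.9, 14.4 and 14.9 CPM in KRAB_no_gRNA libraries, so that all 3 KRAB_CR4 libraries were higher. This was the sole listed gene with KRAB_CR4 wholly above, a pattern that 3.04% of all tested genes showed, and its log2 fold change of 0.17 (interval -0.17 to 0.51) did not pass (unadjusted p = 0.292, edgeR). With KRAB_CR10, 0 listed genes were wholly above, against 4.13% of all tested genes. RRM1 had a log2 fold change of 0.01 in KRAB_CR4 (interval -0.27 to 0.29) and -0.12 in KRAB_CR10 (interval -0.40 to 0.15).

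PGAP2, which acts in the maturation of GPI anchors and lies at the far telomere end of the list, was the sole listed gene with KRAB libraries wholly below KRAB_no_gRNA. It had 44.5, 42.3 and 41.8 CPM in KRAB_CR4 libraries, 42.8, 43.8 and 37.0 CPM in KRAB_CR10 libraries, and 48.2, 46.4 and 45.6 CPM in KRAB_no_gRNA libraries. Of all tested genes 3.76% were wholly below in KRAB_CR4 and 4.74% in KRAB_CR10. The dCas9_CR10 libraries, at 44.6, 45.4 and 40.9 CPM, were also below those of KRAB_no_gRNA, as 2.72% of all tested genes were. RHOG was the other of 2 listed genes wholly below in dCas9_CR10, at a log2 fold change of -0.15 that did not pass. The log2 fold changes of PGAP2 were -0.12 in KRAB_CR4, -0.18 in KRAB_CR10 and -0.10 in dCas9_CR10, and none passed.

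Among the genes farther out TRIM5 had the smallest p with both gRNAs, followed by TPP1 in KRAB_CR4 and by PGAP2 in KRAB_CR10. TRIM5 had a log2 fold change of 0.31 in KRAB_CR4 (interval -0.20 to 0.81, unadjusted p = 0.200, edgeR) and of 0.39 in KRAB_CR10 (interval -0.11 to 0.89, unadjusted p = 0.108, edgeR). In dCas9_CR4 and dCas9_CR10, which have no repressor domain, it was 0.22 and 0.30 against the same KRAB_no_gRNA libraries, which had 22.1, 17.2 and 23.8 CPM. TPP1, a lysosomal protease, had a log2 fold change of 0.19 in KRAB_CR4 (interval -0.14 to 0.53). Over all 26 listed genes the median log2 fold change was 0.05 in KRAB_CR4, against -0.003 over all tested genes, and 0.02 in KRAB_CR10, against -0.02 over all tested genes.

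The width of the intervals differed between genes. All are from the fit without a block for the library number, so the spread they measure includes differences between the libraries numbered 1, 2 and 3. In KRAB_CR4 and in KRAB_CR10 against KRAB_no_gRNA, 19 of the 26 intervals lay within 1 log2 unit of no change. The 7 wider ones belonged to APBB1, DNHD1, HPX, OR51B2, OR51I1, TRIM34 and TRIM6. For 3 of these, TRIM34, OR51I1 and HPX, the lower bound was below -1 with both gRNAs, from -1.02 for OR51I1 in KRAB_CR4 to -1.70 for TRIM34 in KRAB_CR4, so that a fall of 1 log2 unit lies within their intervals.

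**Figure D3:**
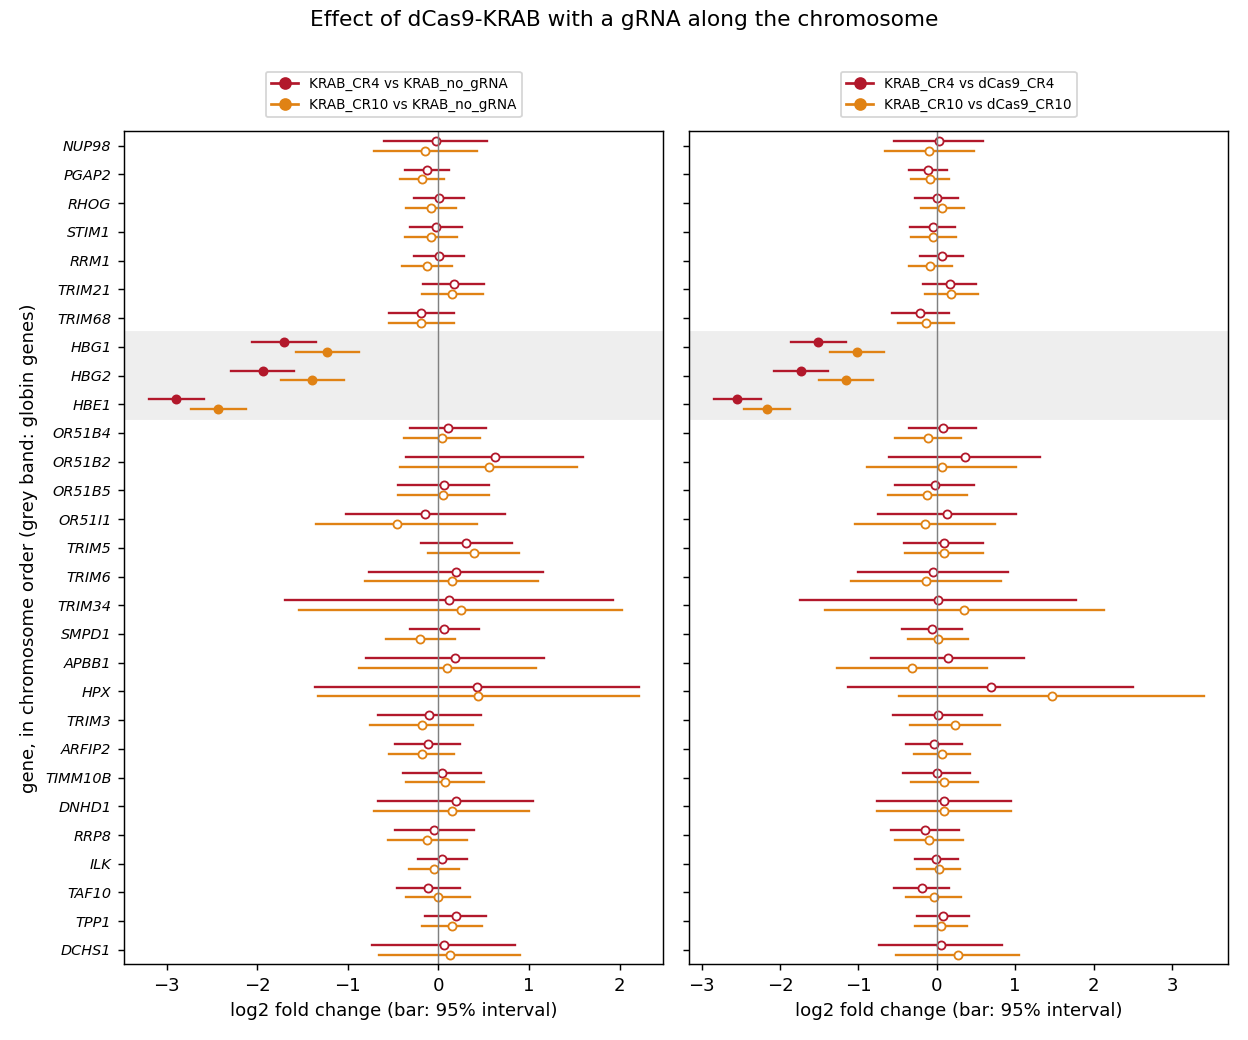
Log2 fold change with its 95% interval for the 26 tested genes and for HBG1, HBG2 and HBE1 (grey band) in chromosome order, for KRAB_CR4 (red) and KRAB_CR10 (orange) against KRAB_no_gRNA (left) and against dCas9 with the same gRNA (right); filled points passed an adjusted p of 0.05. The filled points all belong to globin genes, and every interval of a flanking gene spans 0.

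Next dCas9-KRAB was set against dCas9 with the same gRNA, a comparison of constructs with and without the repressor domain. Again none of the 26 genes passed for either gRNA or for the mean of both, with 0 called by DESeq2 too. The background was 0.0204% of genes for each gRNA and 0.0272% for the mean, of which 0.0068% were higher. Without a block for the library number none reached an unadjusted p of 0.05, which 0.999% of all tested genes did with CR4, 0.496% with CR10 and 1.26% in the mean. In the mean of both gRNAs OR51B4 had a log2 fold change of -0.02 (interval -0.32 to 0.28), OR51B5 of -0.07 (interval -0.43 to 0.28) and OR51B2 of 0.21 (interval -0.47 to 0.89). RRM1 was at -0.01 (interval -0.21 to 0.18). With the larger number of libraries 24 of 26 intervals lay within 1 log2 unit of no change, all but those of HPX and TRIM34.

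The smallest p-values in the mean of both gRNAs belonged to HPX, TRIM21 and TRIM68. HPX had a log2 fold change of 1.07 (interval -0.26 to 2.41, unadjusted p = 0.0967, edgeR), on 0 to 16 counts per library. TRIM21 averaged 16.1 ± 1.53 CPM in the dCas9-KRAB libraries and 14.3 ± 1.16 CPM in the dCas9 libraries (SD, n = 6 each), a log2 fold change of 0.17 (interval -0.06 to 0.41). TRIM68 averaged 19.4 ± 1.72 CPM in the dCas9-KRAB libraries and 21.9 ± 3.15 CPM in the dCas9 libraries, a log2 fold change of -0.17 (interval -0.43 to 0.08). Taken in same-numbered pairs with the same gRNA, TRIM21 was higher in the dCas9-KRAB library in 6 of 6 pairs, as 1.26% of all tested genes were, and TRIM68, PGAP2 and RRP8 were lower in 6 of 6, as 1.84% were. With the library number as a block TRIM21 was at 0.18 (unadjusted p = 0.0476, edgeR) and TRIM68 at -0.16 (unadjusted p = 0.0375, edgeR), both with an adjusted p of 0.941, and they were the 2 of 25 listed genes under an unadjusted p of 0.05, against 5.22% of all tested genes. For the separate gRNAs the changes of OR51B4 were 0.07 with CR4 (interval -0.35 to 0.49) and -0.11 with CR10 (interval -0.53 to 0.31). Those of OR51B5 were -0.02 (interval -0.53 to 0.48) and -0.12 (interval -0.63 to 0.38). TRIM21 was at 0.16 with CR4, where all 3 KRAB libraries lay above the dCas9 libraries with 14.2, 14.8 and 14.4 CPM, and at 0.19 with CR10. It was the sole listed gene wholly above with CR4, against 1.69% of all tested genes, and 0 were wholly below, against 2.15%. With CR4 and CR10 in turn, TRIM68 was at -0.21 and -0.14, RRM1 at 0.06 and -0.08, and OR51B2 at 0.36 and 0.06. With CR4 TAF10, a subunit of TFIID and SAGA, had one of the 3 smallest p-values beside TRIM21 and TRIM68, at -0.19 (interval -0.55 to 0.16). With CR10 HPX at 1.46 and TRIM3 at 0.23 had the smallest p together with TRIM21.

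The gRNAs with dCas9 alone, set against KRAB_no_gRNA, gave 0 called genes among the 26, against a background of 0% in both comparisons. At an unadjusted p of 0.05 there were 0 listed genes too, against 0.449% of all tested genes in dCas9_CR4 and 1.19% in dCas9_CR10. With the library number as a block the unadjusted p was under 0.05 for 0 listed genes in dCas9_CR4 and for TRIM5 and ARFIP2 in dCas9_CR10, against 1.83% and 10.3% of all tested genes. In dCas9_CR4 the smallest p-values belonged to TRIM5 at 0.22, TPP1 at 0.11 and SMPD1, the lysosomal acid sphingomyelinase, at 0.13. In dCas9_CR10 they belonged to TRIM3 at -0.41, ARFIP2, an effector of ARF and RAC GTPases, at -0.25 and TRIM5 at 0.30, all as log2 fold changes. These comparisons share the KRAB_no_gRNA libraries with those of dCas9-KRAB.

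KRAB_CR4 against KRAB_CR10 also gave 0 called listed genes, with a background of 0%, and 0 at an unadjusted p of 0.05, against 0.897% of all tested genes. SMPD1 had the smallest p, with 14.2, 17.7 and 13.7 CPM in KRAB_CR4 libraries against 12.7, 13.4 and 11.9 CPM in KRAB_CR10 libraries. The groups did not overlap, as for 2.26% of all tested genes, and the log2 fold change was 0.26 (interval -0.12 to 0.65, unadjusted p = 0.151, edgeR). RRM1 was at 0.13 and OR51I1 at 0.32. The difference of the KRAB effects, CR4 minus CR10, called 0 listed genes with a background of 0%, and 0 were at an unadjusted p of 0.05, against 0.347% of all tested genes. RRM1 at 0.14, APBB1 at 0.46 and TAF10 at -0.15 had its smallest p-values. The counts of 0 in all 9 comparisons among lentiviral groups held in every alternative that was run, including DESeq2 and the fit with the library number as a block.

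Wider sets of genes were counted in the same way. Among all 87 genes between NUP98 and DCHS1 outside the globin cluster 32 were tested, and 0 were called in any of the 9 comparisons among lentiviral groups. These 32 include the 26 tested listed genes, so their count is largely a repeat of the one above. The others were OR51E2, OR51Q1, OR51I2, OR52D1, TRIM6-TRIM34 and FHIP1B, which all but FHIP1B had at most 120 counts in a library. Of 34 genes on the same arm outside this stretch 27 were tested and 0 were called in any of the 9. Of 36 genes that work with a listed gene, such as the calcium channel genes ORAI1 to ORAI3 for STIM1 or RRM2 for RRM1, 34 were tested and 0 were called in any of the 9. These counts are from edgeR. At an unadjusted p of 0.05 each of the 3 sets had at most 1 gene in a comparison. The stretch between NUP98 and DCHS1 and the partner genes each had 1 in KRAB_CR10 against KRAB_no_gRNA, beside 1.49% of all tested genes. The arm outside the stretch had 1 in KRAB_CR4 against KRAB_CR10, beside 0.897% of all tested genes. The partner genes also had 1 in dCas9_CR10 against KRAB_no_gRNA, beside 1.19%.

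With all 18 libraries fitted, some listed genes were called lower in lentiviral than in untransduced cells. Most of these calls depended on no_lentivirus library 2, as described below. In KRAB_no_gRNA against no_lentivirus 5 of the 26 listed genes were lower and 0 higher, where the background was 6.63% of genes called, 3.76% lower and 2.88% higher. With all 5 lentiviral groups averaged 8 were lower and 0 higher, against a background of 18.7% called, 11.2% lower and 7.55% higher. The 8 were STIM1 and RRM1 on the telomere side and OR51B4, OR51B2, TRIM6, SMPD1, ILK and TPP1 on the centromere side. STIM1, TRIM6, OR51B4, OR51B2 and ILK also passed in KRAB_no_gRNA alone. There ILK averaged 79.2 ± 8.86 CPM in KRAB_no_gRNA and 129 ± 17.3 CPM in no_lentivirus (SD, n = 3 each; log2 fold change -0.71, edgeR adjusted p = 0.0118). STIM1 averaged 169 ± 9.94 CPM in KRAB_no_gRNA and 239 ± 40.8 CPM in no_lentivirus (-0.50, edgeR adjusted p = 0.0346). OR51B4 averaged 27.1 ± 2.39 CPM in KRAB_no_gRNA and 43.3 ± 13.5 CPM in no_lentivirus (-0.68, edgeR adjusted p = 0.0468). The changes of TRIM6 and OR51B2 were larger, at -1.75 and -1.59 (edgeR, adjusted p = 0.0309 and 0.0412), on untransduced means with wide spread: TRIM6 averaged 5.14 ± 0.304 CPM in KRAB_no_gRNA and 17.3 ± 14.3 CPM in no_lentivirus, and OR51B2 1.15 ± 0.506 CPM in KRAB_no_gRNA and 3.46 ± 2.19 CPM in no_lentivirus. By list, 5 of 15 tested housekeeping and signalling genes, 2 of 4 tested olfactory receptor genes and 1 of 6 tested TRIM genes fell, and the 1 tested tissue-restricted gene, HPX, did not pass. HPX had 14, 12 and 14 counts in the untransduced libraries and may have passed the count filter through them. No result on lentiviral against untransduced cells is therefore drawn from it. Over the 26 genes, HPX included, the median log2 fold change was -0.23, against 0.01 over all tested genes. This median is given as a description only.

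ILK, integrin-linked kinase, an adaptor between integrins and actin, had the smallest p among the listed genes. The 15 lentiviral libraries lay between 70.4 and 90.4 CPM, all below the no_lentivirus libraries with 118, 149 and 120 CPM. The lentiviral libraries averaged 79.0 ± 6.29 CPM (SD, n = 15) and the untransduced libraries 129 ± 17.3 CPM (SD, n = 3). The log2 fold change was -0.71 with SE 0.09 (edgeR, adjusted p = 0.000442), and it was the one listed gene that still passed without no_lentivirus library 2, at -0.60 (adjusted p = 0.00723). ILK shares part of its span with TAF10, which pointed the other way at 0.33 without passing (adjusted p = 0.0775, edgeR).

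STIM1, the calcium sensor of the endoplasmic reticulum, had 143 to 188 CPM in the lentiviral libraries, below all of the untransduced libraries with 214, 286 and 218 CPM. Its log2 fold change was -0.52 with SE 0.10 (edgeR, adjusted p = 0.00276). RRM1 lay between 270 and 371 CPM in lentiviral libraries, again below all untransduced libraries, which had 391, 391 and 408 CPM, with a log2 fold change of -0.37 (edgeR, adjusted p = 0.0134). SMPD1 lay between 10.2 and 17.7 CPM in lentiviral libraries against 18.8, 18.8 and 18.4 CPM in untransduced libraries, with a log2 fold change of -0.41 (edgeR, adjusted p = 0.0391). ILK, STIM1, RRM1 and SMPD1 were the 4 listed genes whose lentiviral libraries lay wholly below the untransduced ones, as 4.24% of all tested genes did.

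The other called genes overlapped between lentiviral and untransduced libraries, because no_lentivirus library 1 lay among the lentiviral ones. TRIM6 had 4.25 to 8.14 CPM in lentiviral libraries, against 5.28, 33.0 and 13.5 CPM in untransduced libraries, a log2 fold change of -1.58 (edgeR, adjusted p = 0.00293). OR51B4 had 24.5 to 33.3 CPM in lentiviral libraries, against 29.8, 56.8 and 43.3 CPM in untransduced libraries, a log2 fold change of -0.61 (edgeR, adjusted p = 0.00864). OR51B2 had 0.608 to 2.08 CPM in lentiviral libraries, against 1.52, 5.83 and 3.04 CPM in untransduced libraries, a log2 fold change of -1.21 (edgeR, adjusted p = 0.0126). In all 3 genes library 2 was the highest of the untransduced libraries, library 3 came next and library 1 fell within the lentiviral range. TPP1 had 102 to 154 CPM in lentiviral libraries, against 144, 171 and 156 CPM in untransduced libraries, a log2 fold change of -0.36 (edgeR, adjusted p = 0.0418).

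OR51B5 and TRIM5 followed the same order of untransduced libraries without passing. OR51B5 had 66.1 to 107 CPM in lentiviral libraries, against 76.2, 138 and 100 CPM in untransduced libraries, a log2 fold change of -0.41 (edgeR, adjusted p = 0.105). TRIM5 had 17.2 to 33.1 CPM in lentiviral libraries, against 24.2, 44.5 and 29.4 CPM in untransduced libraries, a log2 fold change of -0.40 (edgeR, adjusted p = 0.116). The readthrough locus TRIM6-TRIM34, which is no listed gene, was called lower at -1.58, and it cannot be separated from TRIM6 by reads that both hold.

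No_lentivirus library 2 weighed on these calls. It was the highest of all 18 for 9 of the 26 listed genes (34.6%), and for 25.6% of all tested genes. Its TIMM10B, a chaperone of mitochondrial protein import, was in turn the lowest of the 18 libraries at 47.7 CPM, against 83.7 and 79.2 CPM in the other untransduced libraries. Without it 1 listed gene, ILK, was called in the average over lentiviral groups, beside 2.33% of all tested genes, and the log2 fold change was -0.70 for TRIM6, -0.37 for OR51B4, -0.61 for OR51B2 and -0.38 for STIM1. RRM1 and SMPD1 moved little, at -0.39 and -0.40, and did not pass (edgeR, adjusted p = 0.0733 and 0.169). Without no_lentivirus library 3 there were 5 called listed genes, beside 9.2% of all tested genes. Without library 1 there were 10, then with OR51B5 and TRIM5 among them, beside 24.3% of all tested genes. In KRAB_no_gRNA against no_lentivirus the count was 0 without KRAB_no_gRNA library 1 (0.18% of all tested genes) or no_lentivirus library 2 (0.276%). It was 1 without KRAB_no_gRNA library 2 (1.44%), KRAB_no_gRNA library 3 (1.59%) or no_lentivirus library 3 (1.39%). When only the 6 libraries of these groups were fitted the count was 0. What sets no_lentivirus library 2 apart was not tested, and vector, selection and expressed protein cannot be told apart in these groups.

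**Figure D4:**
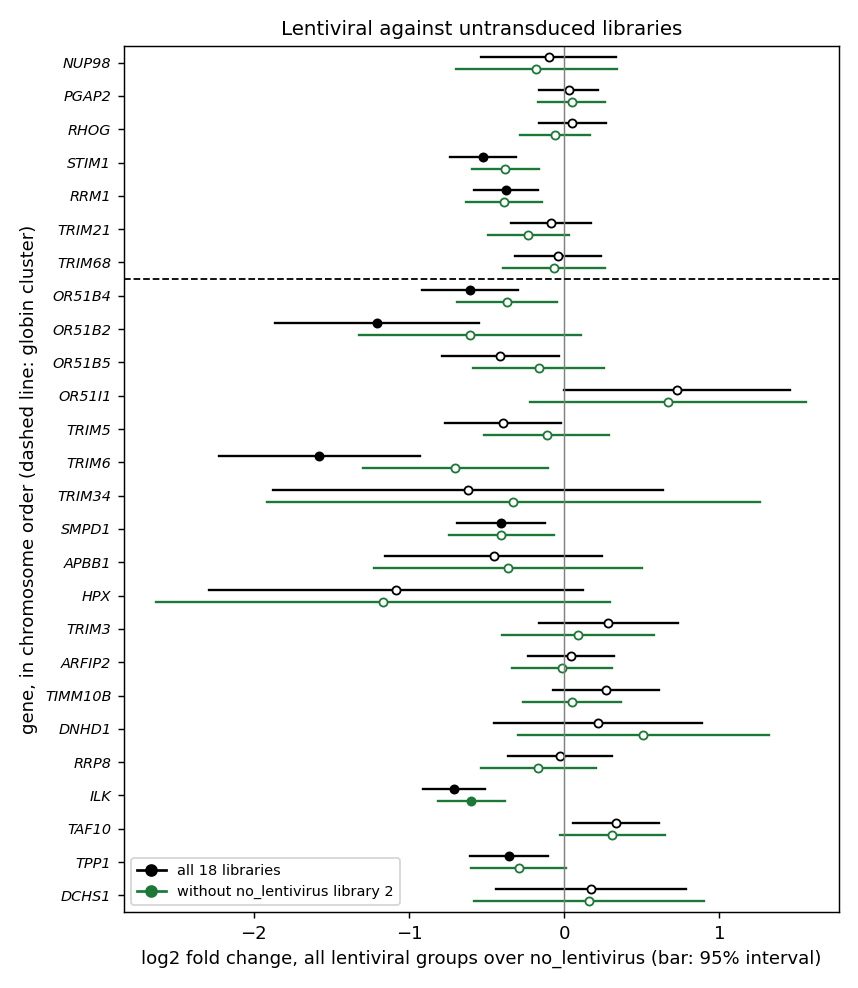
Log2 fold change with its 95% interval for the 26 tested genes in chromosome order (dashed line, globin cluster), all lentiviral groups over no_lentivirus, with all 18 libraries (black) and without no_lentivirus library 2 (green); filled points passed an adjusted p of 0.05. There are 8 filled black points, all left of 0, and 1 filled green point, ILK.

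Genes that work with the listed ones were called in both directions. Of the 34 tested partner genes 4 were higher and 2 lower in lentiviral than in untransduced libraries, against 7.55% higher and 11.2% lower over all tested genes, so that the number called was near the background. The higher ones were TIMM29 at 0.72, TAF4 at 0.58, TAF8 at 0.51 and TAF13 at 0.76, which belong to the mitochondrial carrier translocase and to TFIID. The lower ones were TAF9, another TFIID subunit, at -0.53, and ASAH1, lysosomal acid ceramidase, at -0.73, all as log2 fold changes. Of the partners of ILK, STIM1 and RRM1 none passed. Of the 27 tested genes on the arm outside the stretch 2 were higher and 6 lower, against the same 7.55% and 11.2%. All these calls are from the fit of all 18 libraries. Whether they hold without no_lentivirus library 2, where 2.33% of all tested genes were called, is not given here.

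In 3 places listed genes start head to head, so that their promoter windows overlap on opposite strands. A promoter window is taken as 250 bases before to 50 after the start, from the RefSeq promoter table of GRCh38.p14, which held 40 windows of 25 of the 34 listed genes. ILK and RRP8, an rRNA methyltransferase of the nucleolus, share 257 bases. TIMM10B and ARFIP2 share 269 bases. PGAP2 and NUP98 share between 149 and 273 bases, depending on the start used. The windows below are shown because the paired genes differ or move together in the values that follow, and capitals mark matches on either strand to a GC box with the letters GGGCGG, to the core of an E-box with the letters CACGTG, or to a cyclic AMP response element (CRE) with the letters TGACGTCA.
ILK, chr11:6603524-6603823, + strand: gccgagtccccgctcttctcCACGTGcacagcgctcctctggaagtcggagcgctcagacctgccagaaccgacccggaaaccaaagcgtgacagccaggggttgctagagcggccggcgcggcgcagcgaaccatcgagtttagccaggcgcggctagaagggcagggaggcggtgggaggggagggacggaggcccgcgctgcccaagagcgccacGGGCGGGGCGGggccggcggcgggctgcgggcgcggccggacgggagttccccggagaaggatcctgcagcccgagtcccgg
TIMM10B, chr11:6481251-6481550, + strand: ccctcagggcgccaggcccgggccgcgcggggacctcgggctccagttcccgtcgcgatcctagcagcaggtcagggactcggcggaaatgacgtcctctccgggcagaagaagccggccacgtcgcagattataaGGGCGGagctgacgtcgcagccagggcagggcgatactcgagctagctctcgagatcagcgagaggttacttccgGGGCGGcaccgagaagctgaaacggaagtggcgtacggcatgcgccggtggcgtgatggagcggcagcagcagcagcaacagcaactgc
PGAP2, chr11:3797569-3797868, + strand: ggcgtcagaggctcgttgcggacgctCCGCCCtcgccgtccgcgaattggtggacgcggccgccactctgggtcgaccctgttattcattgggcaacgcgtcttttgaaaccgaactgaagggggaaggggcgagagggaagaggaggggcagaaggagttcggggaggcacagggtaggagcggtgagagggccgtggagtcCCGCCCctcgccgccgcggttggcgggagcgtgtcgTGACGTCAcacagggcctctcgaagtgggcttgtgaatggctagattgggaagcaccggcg

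GC boxes, counted with overlapping copies, were found in 25 of the 40 windows (62.5%), and in 45.0% of the 35116 windows of the table. They occur in 16 of the 25 genes, with 9 copies in 1 window of STIM1 and 7 in that of SMPD1. The CRE letters were in 3 windows (7.5%), of PGAP2 and TAF10, against 1.85% of the table. The PGAP2 windows with these letters overlap and hold the same site. Windows of alternative starts and of head-to-head genes share bases, so these shares count some sites more than once. The E-box letters were in the windows of ILK and DNHD1 (5.0%), against 7.26%. A GATA site with the letters AGATAA was in 3 windows (7.5%), of TRIM21, MMP26 and TRIM5, against 10.3%. The windows of TRIM6 and TPP1 hold none of the 4 sets of letters. Such matches are descriptions of the letters, not evidence of a bound factor.

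Of the paired genes only ILK passed in all lentiviral groups against no_lentivirus. Against no_lentivirus the lentiviral libraries had ILK at -0.71 and RRP8 at -0.03 (interval -0.36 to 0.31), both on the log2 scale. RRP8 had 27.6 to 43.8 CPM in lentiviral libraries and 43.1, 29.8 and 38.0 CPM in untransduced libraries, so these overlapped. TIMM10B was at 0.27 (interval -0.07 to 0.61) and ARFIP2 at 0.04 (interval -0.23 to 0.32). NUP98 was at -0.10 (interval -0.53 to 0.33) and PGAP2 at 0.03 (interval -0.16 to 0.22).

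**Figure D5:**
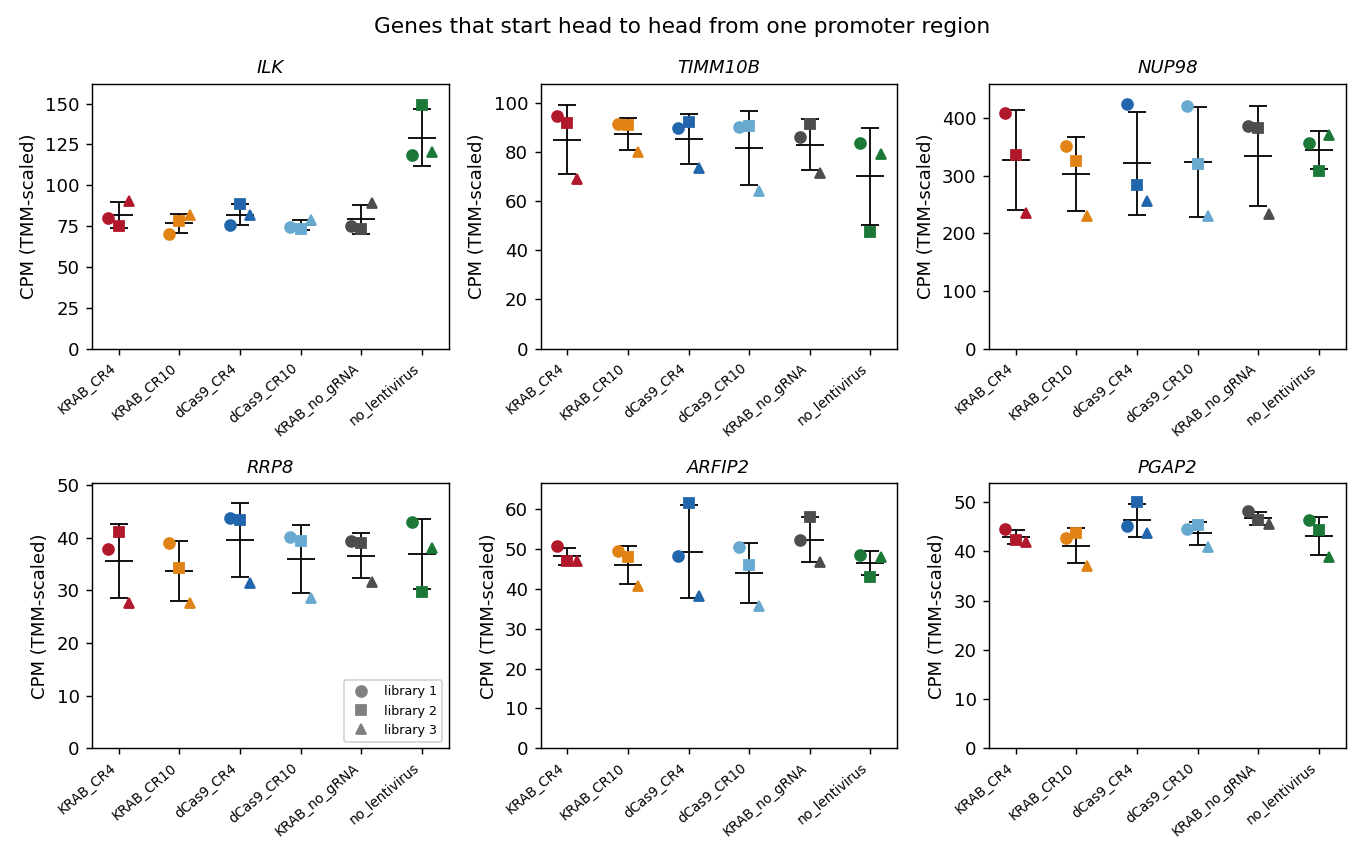
CPM of the 3 head-to-head pairs (columns; ILK with RRP8, TIMM10B with ARFIP2, NUP98 with PGAP2) in each library (points, shaped by library number), with group means and SD (bars, n = 3). ILK lies between 70.4 and 90.4 CPM in all lentiviral libraries and at 118 CPM or more in the untransduced ones, RRP8 overlaps, and NUP98, PGAP2, RRP8 and TIMM10B are lowest in library 3 of every lentiviral group.

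Many listed genes also differed between libraries of the same group. In the 5 lentiviral groups library 3 was above libraries 1 and 2 in every group for 6 of the 26 tested genes (23.1%, against 15.6% of all tested genes) and below both in every group for 7 (26.9%, against 18.3%). The 6 were TRIM34, TRIM5, OR51B5, APBB1, DNHD1 and TPP1. The 7 were NUP98, PGAP2, RRM1, TRIM68, TIMM10B, RRP8 and DCHS1. These shares are given as a description, since the libraries were singled out after the data were seen.

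NUP98 had the lowest ratio of library 3 to libraries 1 and 2 among the genes with over 100 counts in every library. It had 229 to 257 CPM in the libraries numbered 3 and 285 to 424 CPM in those numbered 1 and 2, which did not overlap, at a ratio of means of 0.651. RRP8 (ratio 0.739) and TIMM10B (ratio 0.787) were also lower, and their head-to-head neighbours ILK and ARFIP2 had ratios of 1.11 and 0.815. OR51B5 had 89.2 to 107 CPM in the libraries numbered 3 and 66.1 to 79.6 CPM in those numbered 1 and 2, a ratio of 1.38. OR51B4 had a ratio of 1.03, and OR51B2, which lies between the pair and is low in counts, had a ratio of 1.27 with library 3 above both others in 4 of the 5 groups. DNHD1, a dynein heavy chain-like gene, had the highest ratio among the same genes, 1.76. Fitting only the lentiviral libraries numbered 1 and 2 left 0 listed genes called in the 9 comparisons among lentiviral groups.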

How the data were processed

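RNA of cultured K562 cells was purified on oligo-dT beads and its cDNA was fragmented with Nextera transposase, per the labels' protocols; reads of overlapping genes on opposite strands are therefore not separated. Raw counts for 40709 RefSeq transcript accessions were deposited for each library. Bowtie2, SAMtools, Picard, DESeq, R 3.1.2 and build hg19 appear in the submitters' processing notes with no role given; the counting tool and how multiply aligned reads were treated are not given in the sources used here. Every count was even, taken as 2 per fragment.

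Transcripts were summed to genes through RefSeq and GENCODE tables (39324 and 517 accessions; 868 kept their own name). filterByExpr kept 14713 genes with 99.97% of counts. After TMM scaling, the quasi-likelihood test of edgeR 4.0.16 (R 4.3.3) was run in 1 fit of 6 group means over all 18 libraries; p-values were adjusted by Benjamini-Hochberg over all tested genes and called under 0.05. The common coefficient of variation was 21.6%. SE was derived from the test statistic, and 95% intervals use 12 residual degrees of freedom. CPM are TMM-scaled; CPM per kilobase uses transcript lengths of another annotation (GENCODE), so that of RRP8 and TIMM10B may be too low. Scripts were tested on simulated data. Reads carry no molecular identifiers, so limits cover counting error only.

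The listed genes, the gene lists, the promoter motifs and the tests were chosen with earlier results of these data known. Statistics are given for listed genes that passed, for the 3 smallest p where fewer than 3 passed, and for the 3 nearest tested listed genes on each side. TAF10, OR51B5, TRIM5, RRP8 and other genes named beyond this were chosen after their values were seen. FHIP1B lies between NUP98 and DCHS1 and was moved out of the list of genes outside that stretch. Alternatives were RLE scaling, no filter or a mean of 50 counts, DESeq2, a block for library number, fewer groups or libraries, halved counts, and leaving out each library. Deviations from group means correlated above 0.1 in 30 of 30 same-numbered lentiviral pairs (0.15 to 0.845), in 18 of 60 differently numbered ones, and in 5 of 15 with an untransduced library, so the numbers were taken to pair lentiviral libraries and not untransduced ones.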

Additional observations from a re-analysis of the deposited data

How the results depend on the processing

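In the 9 comparisons among lentiviral groups the count of listed genes called was 0 under every alternative and 0 whichever library was left out. With the library number as a replicate block over the 15 lentiviral libraries it was 0 as well, so the pairing changed no call there. In KRAB_no_gRNA against no_lentivirus 5 genes were called, 9 with the replicate block over all 18 libraries, 0 with only the groups compared, 6 with DESeq2 and 0 to 7 when a library was left out. All genes called there numbered 976, and 27 to 2447 when a library was left out. In all lentiviral groups against no_lentivirus 8 were called, beside 18.7% of all tested genes. With the lentiviral libraries numbered 1 and 2 only 12 were called, beside 30.1% of all tested genes, so the background rose too. The count was 11 with the replicate block over all 18 libraries and 7 to 9 under the other scalings, filters and tests. It was 1 to 10 when a library was left out, where all genes called ranged from 346 to 3629. Shares over all genes for the replicate block, DESeq2 and the other scalings and filters are not given here. No called fold change of a named gene changed sign in the 1118 alternative values of 63 gene results: 1058 kept their call or, where uncalled, moved by no more than 1 SE, 50 no longer passed, and 10 uncalled ones moved by more than 1 SE. Among the uncalled ones 35 changed sign. The cause was not tested. Depth limits OR51B2, OR51I1, TRIM34, HPX, DCHS1 and APBB1, which had under 50 counts in most libraries.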
